A study of Mus musculus with 14 samples.

Results

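The genes of the p53 pathway described here are *Trp53*, which encodes p53, and 9 genes that p53 is known to induce: *Cdkn1a*, *Mdm2*, *Bbc3*, *Bax*, *Ccng1*, *Sesn2*, *Gadd45a*, *Eda2r* and *Trp53inp1*. They were taken by symbol from the 56414 genes listed for each tumor, and each of the 10 was found in 1 row. All 10 had reads in all 14 tumors, with 62 reads at the least (*Eda2r*), and all 10 entered every comparison.

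p53 is a transcription factor that accumulates when DNA is damaged or oncogenes are active, and it then switches on genes that stop the cell cycle, repair DNA or kill the cell. Its amount is set mainly by the stability of the protein, which the ubiquitin ligase Mdm2 keeps low, and *Mdm2* is itself a p53 target, which closes a feedback loop. In the mammary gland, as in other epithelia, loss or mutation of p53 is a frequent step towards carcinoma. The values below are of mRNA, so they bear on the output of the pathway and not on the amount or the mutation status of p53 itself.

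RNA-seq of polyA RNA was performed on mammary tumors of C57Bl/6 mice, with 1 library per tumor. M/D-driven tumors (4 untreated, 4 NAM-treated) arose in females that had a 50 mg pellet of medroxyprogesterone acetate (MPA, released over 90 days) implanted at 6 to 9 weeks of age and then received gavages of 200 µL of the carcinogen 7,12-dimethylbenz[a]anthracene (DMBA) at 5 mg per mL. AT3 tumors (3 untreated, 3 NAM-treated) grew from 1000000 subcutaneously injected AT3 cells, a mouse mammary carcinoma line, so that these 6 tumors are of a single line, without MPA or DMBA, in hosts whose age the labels do not state. Mice of both models were randomised at a tumor size of 0.25 cm2, and NAM (nicotinamide, a form of vitamin B3) was given at 0.5% in the drinking water for 10 days. The labels place NAM-treated M/D-driven tumor 1 in experiment 2, its 7 fellows of the same model in experiment 1 and the 6 AT3 tumors in experiment 3, so that model and experiment cannot be told apart. The study's methods count the transcriptomic samples as mice, and p values measure the spread between these tumors.

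Between 40936868 and 84178009 reads per tumor were recovered from the deposited values. NAM-treated M/D-driven tumor 1 stood apart from the others of its model before any gene of the pathway was considered. Its summed level of 9 epithelial markers was 7372 rescaled reads (reads divided by size factors common to the 14 tumors), against 246397 to 951920 in the 7 other M/D-driven tumors, and it was lowest for 9 of the 9. Conversely, its 4 B cell markers summed to 160292 against at most 1464, its 7 precursor B cell markers to 208285 against at most 1534 (*Rag2* was at 0 in all 4 untreated M/D-driven tumors), and it was highest for 15 of 15 proliferation genes, with 164364 against at most 88210. Of the 7 precursor B cell markers it was highest for 6 and lowest for 1, *Rag1*, at 445. The NAM effects and model differences of the 10 genes that involve this tumor and are named below are therefore also given without it. As these are whole tumors, fewer cells of a type and less RNA per cell cannot be told apart in any value below.

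In the deposited annotation (mm10) the whole genes map as follows: *Trp53* to chr11:69580359-69591873, *Cdkn1a* to chr17:29090979-29100722, *Mdm2* to chr10:117688876-117710758, *Bbc3* to chr7:16309583-16318334, *Bax* to chr7:45461695-45466898, *Ccng1* to chr11:40748554-40755286, *Sesn2* to chr4:132492034-132510501, *Gadd45a* to chr6:67035096-67037407, *Eda2r* to chrX:97333837-97377216 and *Trp53inp1* to chr4:11156440-11174381. The counts were made over their constitutive regions. Unnamed rows overlap *Trp53*, *Cdkn1a*, *Sesn2* and *Gadd45a*, and *Gadd45a* also overlaps *E230016M11Rik*. It is not stated whether the counting used strand, so reads of overlapping rows may not be kept apart.

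The promoters of 9 of the 10 genes were found in RefSeq sequences (GRCm38.p6, the mm10 build; no entry was matched for *Trp53inp1*), each as a window from 250 bases before the start of a transcript to 50 bases after it. They were searched on both strands for the p53 half-site, the 10-base element of which a full p53 response element holds a pair. A half-site was present in 6 of the 12 windows, 1 or more for each of *Trp53*, *Cdkn1a*, *Mdm2*, *Bax*, *Ccng1* and *Gadd45a*, and in none of the windows of *Bbc3*, *Sesn2* and *Eda2r*. Of 32851 windows of all genes, 8.36% held a half-site and 0.359% held 2 or more, as the first window of *Cdkn1a* did. A match is a string of letters and not a measured site of binding, and p53 sites also lie outside such windows. The windows shown are the first of the arrest gene *Cdkn1a* and those of *Bax*, *Ccng1* and *Sesn2*, and capitals mark the half-sites. *Bax*, *Ccng1* and *Sesn2* are among the 4 genes that differed between untreated models. *Bbc3*, the remaining one, has 3 windows without a half-site, which are not shown. The second window of *Cdkn1a* (chr17:29093519-29093818) held 0 half-sites and is not shown either.
*Cdkn1a*, chr17:29090729-29091028, plus strand: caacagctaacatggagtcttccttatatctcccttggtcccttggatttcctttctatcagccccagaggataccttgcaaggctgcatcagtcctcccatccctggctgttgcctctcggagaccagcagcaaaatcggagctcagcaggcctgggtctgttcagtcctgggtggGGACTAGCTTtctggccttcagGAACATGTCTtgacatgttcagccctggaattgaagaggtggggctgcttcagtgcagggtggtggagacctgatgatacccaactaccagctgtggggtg
*Bax*, chr7:45466849-45467148, minus strand: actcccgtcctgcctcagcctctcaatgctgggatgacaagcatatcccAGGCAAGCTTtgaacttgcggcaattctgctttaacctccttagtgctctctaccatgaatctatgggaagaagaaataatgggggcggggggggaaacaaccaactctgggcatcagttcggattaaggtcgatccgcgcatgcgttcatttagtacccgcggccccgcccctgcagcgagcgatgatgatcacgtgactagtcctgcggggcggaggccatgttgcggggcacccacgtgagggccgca
*Ccng1*, chr11:40755237-40755536, minus strand: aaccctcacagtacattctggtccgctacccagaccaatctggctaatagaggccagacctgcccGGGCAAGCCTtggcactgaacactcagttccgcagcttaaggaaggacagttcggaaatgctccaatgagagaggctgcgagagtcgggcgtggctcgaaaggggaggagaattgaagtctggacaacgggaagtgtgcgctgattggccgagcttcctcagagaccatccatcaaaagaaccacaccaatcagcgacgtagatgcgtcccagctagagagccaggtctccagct
*Sesn2*, chr4:132510407-132510706, minus strand: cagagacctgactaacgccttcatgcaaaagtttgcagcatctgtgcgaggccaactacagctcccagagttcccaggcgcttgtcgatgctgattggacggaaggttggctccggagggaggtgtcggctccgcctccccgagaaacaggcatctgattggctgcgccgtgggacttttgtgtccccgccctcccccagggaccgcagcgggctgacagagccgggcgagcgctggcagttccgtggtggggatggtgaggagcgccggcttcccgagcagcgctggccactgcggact
The half-sites in the first window of *Cdkn1a* begin 73 and 51 bases before the more upstream of its transcript starts. That of *Bax* begins 201 bases before the start and that of *Ccng1* 185 bases before it.

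*Trp53* and its antagonist *Mdm2* did not pass the test for NAM in either model. In normalized counts, which can be compared within a model, *Trp53* was at 7249, 5280, 5257 and 5090 in untreated M/D-driven tumors 1 to 4 and at 8538, 5869, 7973 and 5165 in the NAM-treated ones. It was at 4835, 6582 and 3902 in untreated AT3 tumors and at 5758, 6557 and 7771 in NAM-treated AT3 tumors. The treated and untreated groups overlapped in both models. With NAM, *Trp53* differed by 0.25 ± 0.22 (log2 fold change ± SE, limma) in M/D-driven tumors, with a 95% confidence interval from -0.25 to 0.76, by 0.14 without NAM-treated tumor 1, and by 0.41 ± 0.25 in AT3 tumors (-0.15 to 0.97). The adjusted p values of limma were 0.81 and 0.31. *Mdm2* stayed within 1272 to 1778 normalized counts in the 8 M/D-driven tumors and within 1428 to 2091 in the 6 AT3 tumors. A smaller spread within groups than that of *Mdm2* was found for 2.29% of genes among M/D-driven tumors, against 22.3% among AT3 tumors. Its NAM effect was -0.12 ± 0.18 in M/D-driven tumors (-0.52 to 0.29; -0.13 without NAM-treated tumor 1) and -0.03 ± 0.23 in AT3 tumors (-0.56 to 0.50, positive in some alternatives), within the spread between tumors in both.

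*Cdkn1a*, which encodes the cyclin-dependent kinase inhibitor p21 and is the best known p53 target in cell cycle arrest, was the most uneven of the 10 genes among M/D-driven tumors. It was at 22434, 6598, 20554 and 43640 normalized counts in untreated M/D-driven tumors and at 2033, 40649, 15291 and 5851 in NAM-treated ones. The highest M/D-driven tumor was thus 21.5-fold above the lowest, and both a high and a low tumor were present in each treatment group. In AT3 tumors the levels were 26393, 19227 and 20315 without NAM and 16859, 16727 and 14886 with it, which is 1.77-fold from lowest to highest, and the 2 AT3 groups did not overlap. The spread of *Cdkn1a* within groups was larger than that of 82.5% of genes in M/D-driven tumors and larger than that of 11.3% of genes in AT3 tumors (the difference in spread was not tested). The NAM effect on *Cdkn1a* was -1.04 ± 0.93 in M/D-driven tumors (-3.16 to 1.08; limma adjusted p = 0.81) and -0.31 without NAM-treated tumor 1. In AT3 tumors it was -0.43 ± 0.21 (-0.91 to 0.05; limma adjusted p = 0.24). This value did not pass, although the groups were apart, and 22.6% of all genes tested in AT3 tumors had groups that did not overlap (11% with NAM lower).

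*Ccng1* encodes cyclin G1, which recruits a phosphatase to Mdm2, and *Gadd45a* encodes a stress sensor that acts in arrest and DNA repair. *Ccng1* was at 3541, 2913, 2562 and 3768 normalized counts in untreated M/D-driven tumors, at 1668, 2320, 4906 and 3462 in NAM-treated ones, at 4894, 2796 and 5362 in untreated AT3 tumors and at 4400, 5107 and 6544 in NAM-treated ones. *Gadd45a* was at 276, 709, 517 and 745 in untreated M/D-driven tumors, at 435, 828, 433 and 325 in NAM-treated ones, at 568, 459 and 528 in untreated AT3 tumors and at 429, 389 and 401 in NAM-treated ones. The treated and untreated M/D-driven tumors overlapped for both genes, whereas the 3 NAM-treated AT3 tumors were all below the 3 untreated ones for *Gadd45a*. Neither passed the test, with *Ccng1* at -0.15 ± 0.34 and 0.33 ± 0.29 and *Gadd45a* at -0.14 ± 0.41 and -0.35 ± 0.22 in M/D-driven and AT3 tumors. Without NAM-treated tumor 1 the M/D-driven values were 0.11 for *Ccng1* and -0.10 for *Gadd45a*.

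The genes that act in cell death are *Bbc3*, which encodes the BH3-only protein PUMA, *Bax*, which encodes the pore-forming protein of the mitochondrial outer membrane, and *Eda2r*, which encodes a receptor of the TNF receptor family. *Bbc3* was at 963, 926, 574 and 696 normalized counts in untreated M/D-driven tumors and at 306, 793, 1437 and 790 in NAM-treated ones, and at 2135, 1902 and 1398 in untreated and 1710, 1401 and 1455 in NAM-treated AT3 tumors. *Bax* was at 6083, 5825, 3839 and 5473 in untreated M/D-driven tumors and at 5601, 7302, 8881 and 3733 in NAM-treated ones. In AT3 tumors *Bax* was at 18128, 12566 and 14430 without NAM and at 12656, 9865 and 8836 with it, so that a single treated tumor reached the range of the untreated ones. *Eda2r* was at 326, 105, 180 and 258 in untreated M/D-driven tumors and at 53, 105, 630 and 127 in NAM-treated ones, and its AT3 values of 300, 79 and 200 against 168, 268 and 326 overlapped as well. The largest of these NAM effects relative to its error was that of *Bax* in AT3 tumors, at -0.53 ± 0.23 (-1.05 to 0.0037; limma adjusted p = 0.21), against 0.22 ± 0.29 in M/D-driven tumors (0.25 without NAM-treated tumor 1). The difference between both effects was -0.74 ± 0.40 (limma interaction, adjusted p = 0.38), and -0.78 without that tumor. *Bbc3* differed by -0.09 ± 0.45 in M/D-driven tumors, which turned to 0.32 without NAM-treated tumor 1, and by -0.23 ± 0.23 in AT3 tumors. *Eda2r* differed by -0.46 ± 0.74, or 0.02 without NAM-treated tumor 1, and by 0.54 ± 0.49 in AT3 tumors.

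*Trp53inp1* encodes a nuclear protein that promotes p53-dependent death and autophagy, and *Sesn2* encodes sestrin 2, a stress protein that restrains mTORC1 and is also induced when amino acids are scarce. *Trp53inp1* was at 789, 867, 529 and 610 normalized counts in untreated M/D-driven tumors and at 2210, 440, 1391 and 843 in NAM-treated ones. It was at 507, 361 and 410 in untreated AT3 tumors and at 403, 723 and 900 in NAM-treated ones. The highest value in each model came from a treated tumor, but the groups overlapped in both, and the NAM effects of 0.59 ± 0.47 (0.23 without NAM-treated tumor 1) and 0.60 ± 0.32 had limma adjusted p values of 0.80 and 0.27. *Sesn2* was at 1112, 1131, 1151 and 1720 in untreated M/D-driven tumors and at 357, 1229, 1614 and 999 in NAM-treated ones. In AT3 tumors *Sesn2* was at 343, 590 and 431 without NAM and at 637, 980 and 1206 with it, each treated tumor above each untreated one.

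**Figure D1:**
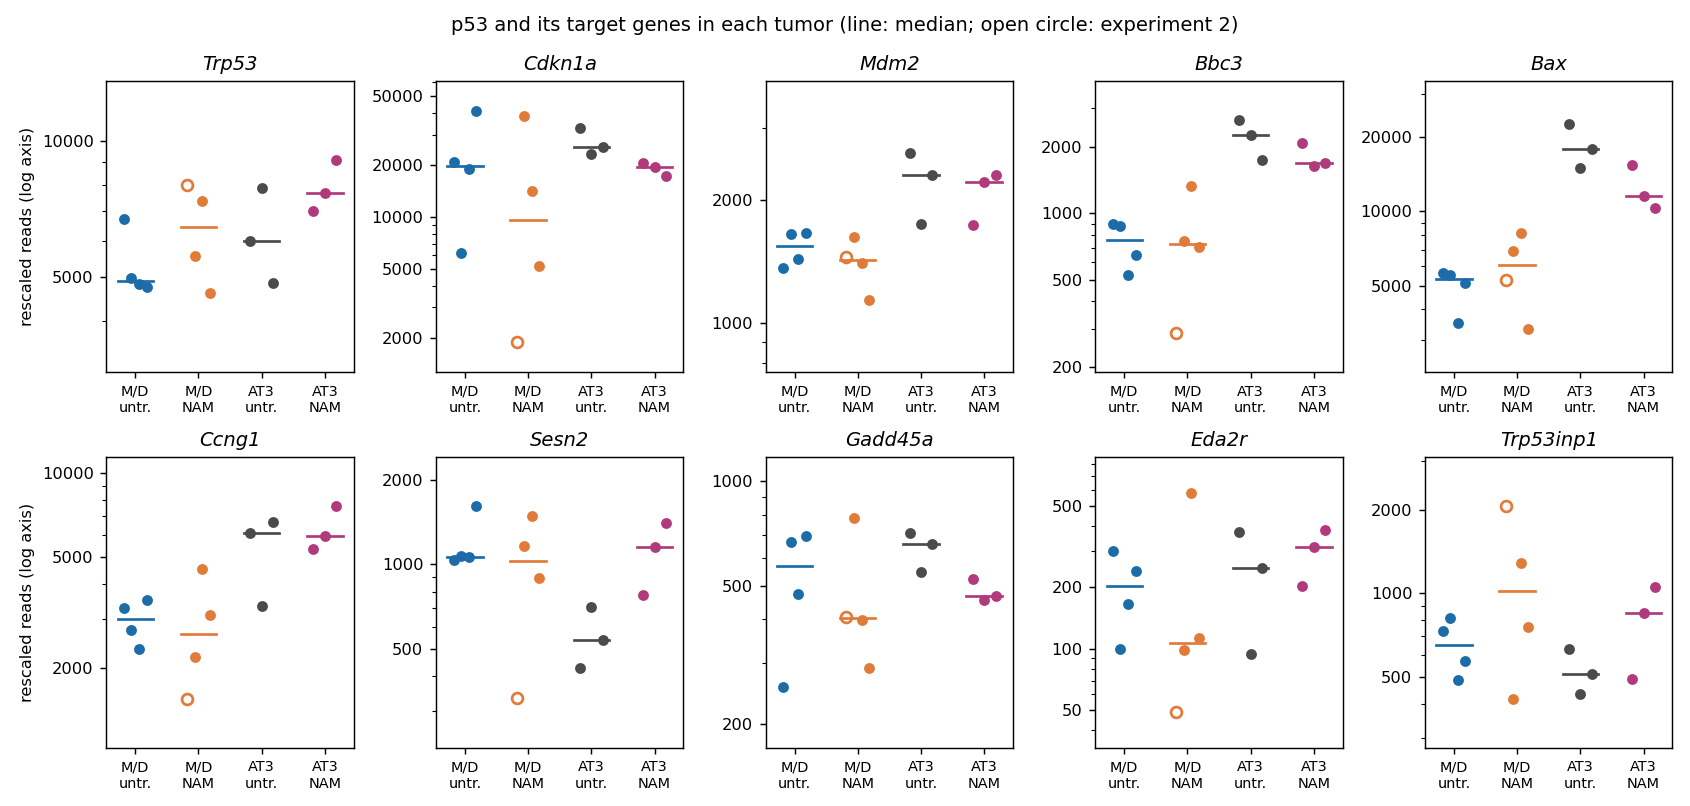
Level of each gene in the 14 tumors, in rescaled reads (reads divided by size factors common to all tumors, log axis); each point is a tumor, lines are group medians, and the open circle is NAM-treated M/D-driven tumor 1 of experiment 2. *Cdkn1a* spreads from 1903 to 40763 among M/D-driven tumors, and *Bax* and *Bbc3* are higher in each AT3 tumor than in each M/D-driven tumor.

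*Sesn2* was the single gene of the 10 past the thresholds of the study's methods (an unadjusted p up to 0.05 with 1.5-fold or more) for the effect of NAM, and it passed them in AT3 tumors only. NAM-treated AT3 tumors held 2.05-fold more *Sesn2* than untreated ones (log2 fold change 1.03 ± 0.31, from 0.33 to 1.74). After adjustment over the 19281 genes tested, the limma adjusted p was 0.17, and 0 of the 10 genes passed an adjusted p of 0.05. At the study's thresholds 12.2% of all genes tested in AT3 tumors were higher with NAM and 10.9% lower, so that 1 of 10 is no more than the share of all genes, and at the adjusted p only 0.00519% of genes were called. *Sesn2* passed an adjusted p of 0.05 in 4 of 18 alternatives, among them DESeq2 on the recovered reads (0.028) and the fits without NAM-treated AT3 tumor 1 (0.029) and without untreated AT3 tumor 2 (0.045). In M/D-driven tumors the NAM effect on *Sesn2* was -0.45 ± 0.45 (-1.48 to 0.58), and -0.00062 without NAM-treated tumor 1. The effect in AT3 tumors exceeded that in M/D-driven tumors by 1.49 ± 0.61 (limma interaction, adjusted p = 0.30), and by 1.03 (adjusted p = 0.24) without NAM-treated tumor 1. At p of at most 0.05 and 1.5-fold this difference was seen for 14.9% of all genes (7.9% with the higher effect in AT3 tumors and 6.97% with the lower).

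In M/D-driven tumors 0 of the 10 genes passed either threshold for NAM with limma, with or without NAM-treated tumor 1, 0 had an unadjusted p of at most 0.05, and DESeq2 and edgeR on the recovered reads called 0 as well. Of all 21700 genes tested there, 6.22% passed the study's thresholds (3.19% lower with NAM), 6.71% an unadjusted p of 0.05 and 0.00461% an adjusted p of 0.05. The treated and untreated groups did not overlap for 0 of the 10 genes and for 4.43% of all genes. The median over the 10 genes was -0.13 in M/D-driven tumors (3 genes above 0 and 7 below), beside 0.01 over all genes. Without NAM-treated tumor 1 *Bbc3* (0.32), *Ccng1* (0.11) and *Eda2r* (0.02) moved above 0, and no gene moved below it. The lean below 0 was therefore not kept without that tumor. In AT3 tumors the median was 0.15, beside -0.05. For each of the 10 genes the confidence interval in M/D-driven tumors reached 0.5 above or below 0 on the log2 scale, so that a difference of this size cannot be set aside for any of them.

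**Figure D2:**
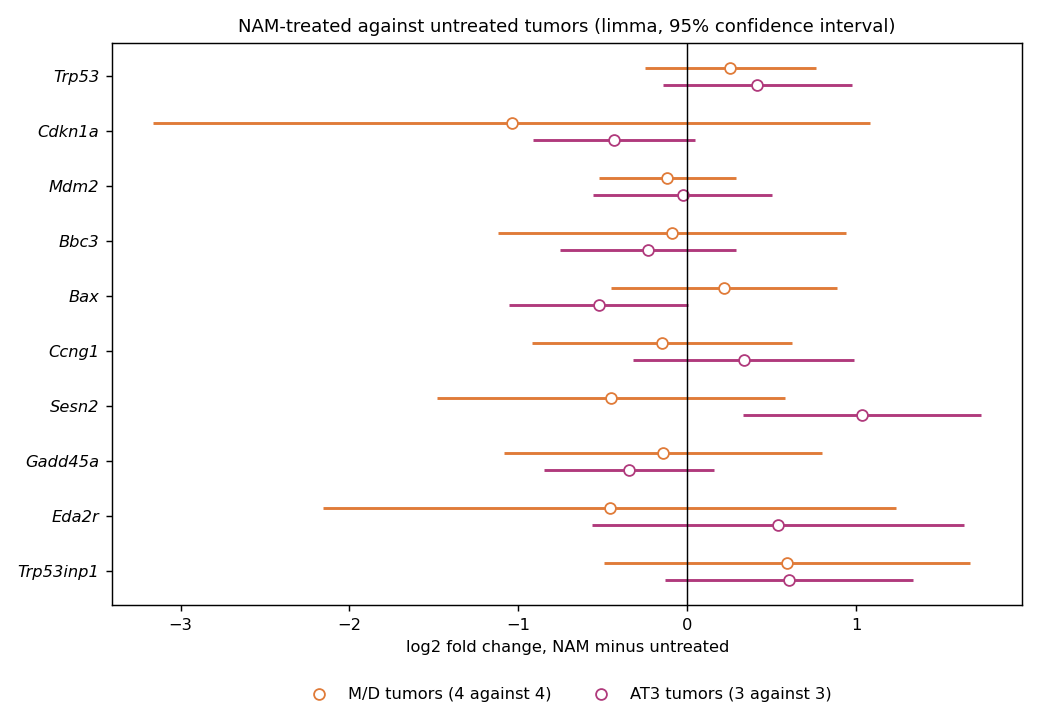
Log2 fold change between NAM-treated and untreated tumors for each gene, with its 95% confidence interval (limma), in M/D-driven tumors (orange) and AT3 tumors (purple). *Sesn2* in AT3 tumors, at 1.03, is the one gene whose interval lies fully to one side of 0.

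In AT3 tumors the NAM effect moved with transcript length across all genes (Spearman rho = 0.59 over the 16429 genes with a known length; genes are not independent replicates), and the direction of the 10 effects split by it too, although the sizes within each direction were not ordered by length. The 5 genes with a positive effect have longest transcripts of 3275 bases (*Trp53*), 3475 (*Sesn2*), 3512 (*Ccng1*), 4752 (*Eda2r*) and 5432 (*Trp53inp1*). The 5 with a negative effect have transcripts of 1100 bases (*Bax*), 1223 (*Gadd45a*), 1814 (*Bbc3*), 2080 (*Cdkn1a*) and 3145 (*Mdm2*). Once the trend of each tumor with length and GC content was removed, *Sesn2* stayed at 0.78 (limma adjusted p = 0.15), *Bax* moved to -0.08, *Cdkn1a* to -0.22 and *Gadd45a* to 0.23, on the other side of 0. Markers of cell types differed between the AT3 groups as well. The 9 epithelial markers summed to 86048 to 97185 rescaled reads with NAM against 101799 to 126625 without, the 3 endothelial markers to 4362 to 7135 against 2717 to 3808, and the 4 B cell markers to 52 to 87 against 154 to 177, with 0 of these markers at 0. Single markers did not all follow these sums. Of the epithelial ones 2 of 9 were lower with NAM without overlap and 1 (*Cdh1*, at 12730 to 22290 against 8255 to 11910) was higher, and of the others 1 of 3 endothelial markers was higher and 2 of 4 B cell markers were lower. Of 6 macrophage markers, whose sums overlapped, 3 were higher (*Csf1r* at 3487 to 4878 against 1481 to 2485) and 0 lower. Groups did not overlap for 22.6% of all genes tested in AT3 tumors. The part of the cell types in the result was not tested.

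Each tumor was also set against the mean of its model. NAM-treated M/D-driven tumor 1 was lowest of 8 for 5 genes (*Cdkn1a*, *Bbc3*, *Ccng1*, *Sesn2* and *Eda2r*) and highest for 2 (*Trp53* and *Trp53inp1*). NAM-treated M/D-driven tumor 3 was highest for 4 (*Bbc3*, *Bax*, *Ccng1* and *Eda2r*). Untreated M/D-driven tumor 4 was highest for *Cdkn1a*, *Mdm2* and *Sesn2*. In AT3 tumors, untreated tumor 1 was highest of 6 for *Cdkn1a*, *Mdm2*, *Bbc3*, *Bax* and *Gadd45a*, and NAM-treated tumor 3 for the 5 others.

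**Figure D3:**
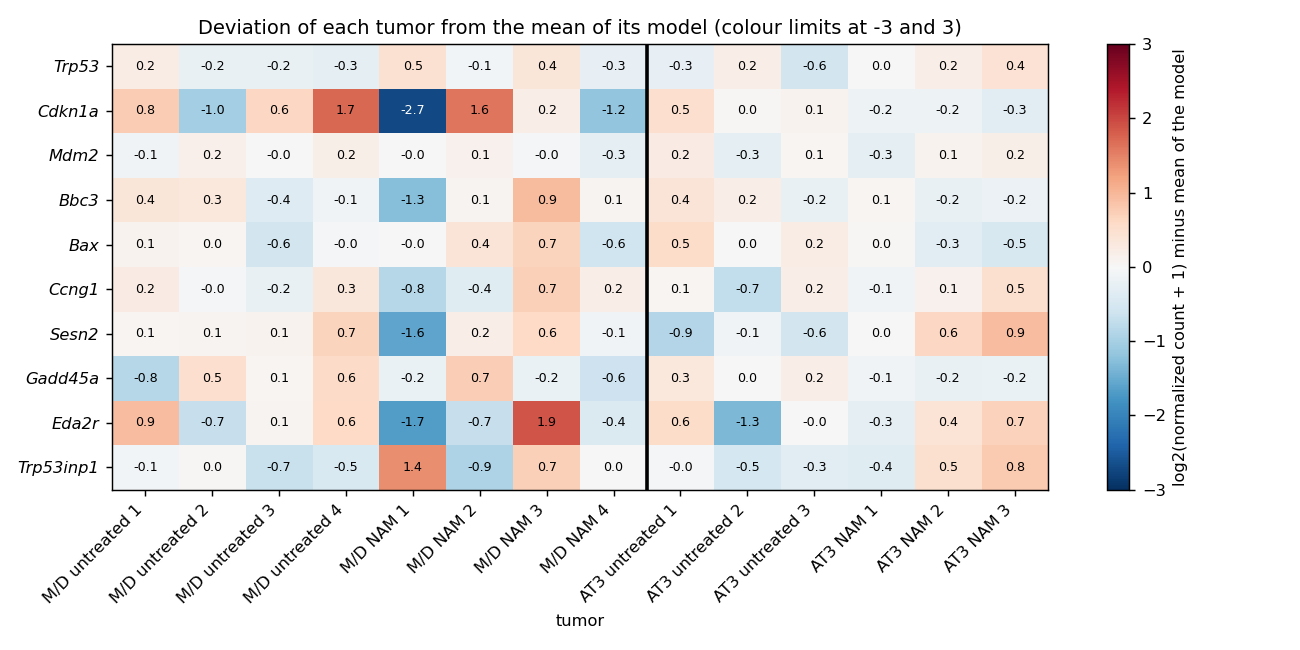
Deviation of each gene in each tumor from its mean over the tumors of the same model, in log2(normalized count + 1); red is above and blue below that mean, and the black line parts M/D-driven from AT3 tumors. The largest deviations are those of M/D-driven tumors, with *Cdkn1a* at -2.7 and *Eda2r* at -1.7 in NAM-treated tumor 1 and *Eda2r* at 1.9 in NAM-treated tumor 3.

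The levels of the 10 genes were compared between models on reads rescaled by size factors common to the 14 tumors. In untreated tumors 4 of the 10 genes differed at an adjusted p of 0.05, *Bax*, *Bbc3* and *Ccng1* being lower and *Sesn2* higher in M/D-driven than in AT3 tumors. As 51.2% of all 21721 genes tested were called in this comparison (27.6% higher and 23.6% lower in M/D-driven tumors), 4 of 10 is close to the background. The same 4 genes passed the study's thresholds, as did 56.5% of all genes (30.1% higher, 26.4% lower), and 58.5% had an unadjusted p of at most 0.05. The groups did not overlap for 4 of the 10, *Bax*, *Bbc3* and *Mdm2* being lower and *Sesn2* higher, and for 53.8% of all genes (28.1% higher, 25.8% lower).

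*Bax* differed most. It was at 5642, 5496, 3527 and 5112 rescaled reads in untreated M/D-driven tumors and at 22593, 15032 and 17977 in untreated AT3 tumors, 3.76-fold lower in the former (log2 fold change -1.91 ± 0.23, limma adjusted p = 0.00045). *Bbc3* was at 893, 873, 527 and 650 against 2660, 2275 and 1742, 3.05-fold lower (-1.61 ± 0.26, limma adjusted p = 0.0014). The groups were apart for both of these apoptosis genes, and both kept an adjusted p of at most 0.05 in all 18 alternatives, at -1.39 to -2.40 for *Bax* and -1.24 to -2.10 for *Bbc3*. *Ccng1* was at 3284, 2748, 2354 and 3519 against 6099, 3345 and 6680, and untreated AT3 tumor 2 lay within the range of the M/D-driven tumors. Its difference of -0.81 ± 0.27 (limma adjusted p = 0.036) lost the call in 9 of 18 alternatives, as with the trend with length and GC content removed (-0.51, adjusted p = 0.11), without untreated AT3 tumor 1 (-0.68, 0.13), untreated AT3 tumor 3 (-0.62, 0.14), untreated M/D-driven tumor 1 (-0.86, 0.056), tumor 2 (-0.77, 0.056) or tumor 3 (-0.70, 0.091).

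*Sesn2* went the other way, with 1032, 1067, 1058 and 1606 rescaled reads in untreated M/D-driven tumors against 428, 706 and 537 in untreated AT3 tumors. Each M/D-driven tumor was above each AT3 tumor, by 2.14-fold on average (log2 fold change 1.10 ± 0.26, limma adjusted p = 0.0078). The call was lost in 2 of 18 alternatives, among them upper quartile rescaling (0.61, adjusted p = 0.072). *Mdm2* was lower in each untreated M/D-driven tumor (1362 to 1661 rescaled reads) than in each untreated AT3 tumor (1745 to 2606), but its difference of -0.52 ± 0.20 missed the threshold (limma adjusted p = 0.055). It passed in 4 of 18 alternatives, among them DESeq2 (adjusted p = 0.034) and limma without untreated AT3 tumor 2 (adjusted p = 0.011). For *Trp53*, *Cdkn1a*, *Gadd45a*, *Eda2r* and *Trp53inp1* the untreated groups overlapped and limma adjusted p values were 0.36 to 0.83, with *Trp53* at -0.22 ± 0.22 (-0.73 to 0.29).

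The same genes were compared in the NAM-treated tumors, which the former comparison did not use. Each comparison between models shares its tumors with the comparisons of NAM within them, so that values of both are not independent. *Bax* was at 5244, 6922, 8194 and 3338 rescaled reads in M/D-driven and at 15408, 11552 and 10304 in AT3 tumors (-1.12 ± 0.34, limma adjusted p = 0.085). *Bbc3* was at 286, 752, 1326 and 707 against 2081, 1640 and 1697 (-1.42 ± 0.48, limma adjusted p = 0.11) and *Ccng1* at 1561, 2199, 4527 and 3096 against 5356, 5981 and 7632 (-1.25 ± 0.37, limma adjusted p = 0.083). For these 3 genes each M/D-driven tumor was below each AT3 tumor, and without NAM-treated tumor 1 the differences were -1.09, -1.01 and -0.996 (limma adjusted p = 0.081, 0.057 and 0.065). *Sesn2* was at 335, 1165, 1489 and 893 against 775, 1148 and 1407, which overlap (-0.34 ± 0.52, limma adjusted p = 0.70, and 0.10 without NAM-treated tumor 1). In all, 0 of the 10 genes passed a limma adjusted p of 0.05 (4 had an unadjusted p of at most 0.05, and DESeq2 called *Bax* and *Ccng1*), where 7.84% of all genes did (2.83% lower in M/D-driven tumors) and 25.7% at the unadjusted p, and 3 (*Bax*, *Bbc3* and *Ccng1*) were lower at the study's thresholds, where 10% of all genes were and 25.3% passed in either direction. With *Mdm2*, 4 of the 10 were lower in M/D-driven tumors without overlap, beside 12.6% of all genes in that direction and 27.8% in both.

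**Figure D4:**
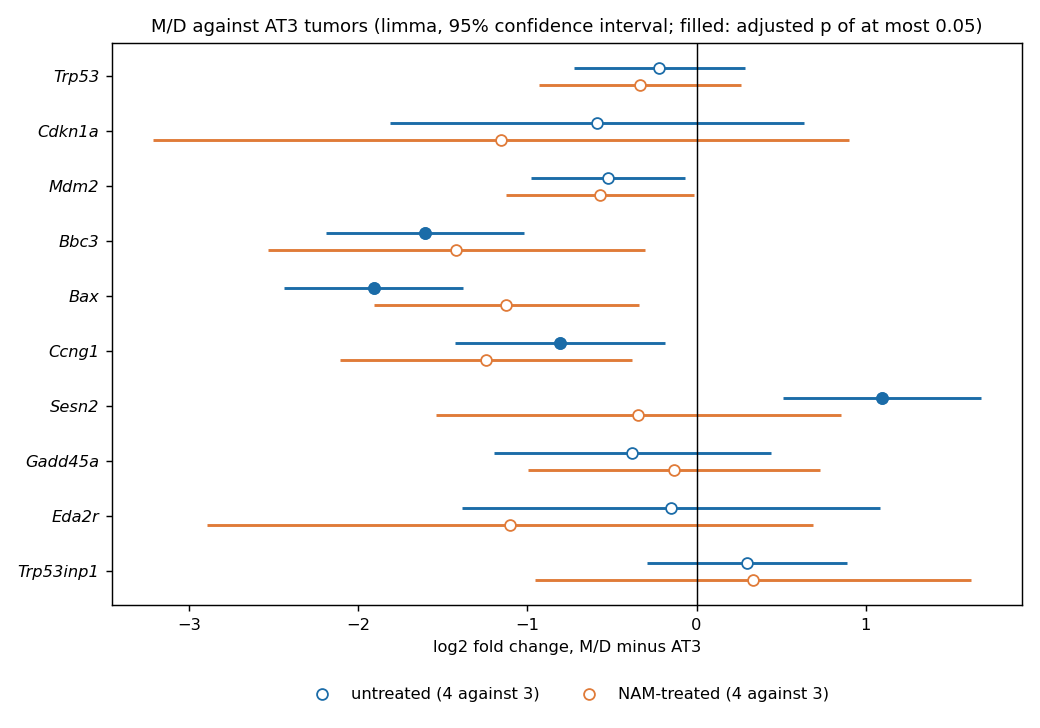
Log2 fold change between M/D-driven and AT3 tumors for each gene, with its 95% confidence interval (limma), in untreated (blue) and NAM-treated (orange) tumors; filled points have an adjusted p of at most 0.05. *Bax* and *Bbc3* lie left of 0 in both pairs of groups, and *Sesn2* lies at 1.10 in untreated and at -0.34 in NAM-treated tumors.

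Several marker sums differed between the untreated models without overlap. The 9 epithelial markers summed to 302562 to 951920 rescaled reads in untreated M/D-driven tumors and to 101799 to 126625 in untreated AT3 tumors, and the 15 proliferation genes to 37838 to 88210 against 111377 to 133635, with 0 of these genes at 0 in any tumor. The 4 adipocyte markers summed to 18182 to 56267 against 6516 to 11200, the 3 endothelial ones to 4648 to 12638 against 2717 to 3808 and the 7 precursor B cell ones to 1039 to 1534 against 2769 to 5745, with up to 4 of these 7 at 0 in a tumor. The precursor B cell sum was mostly *Rag1*, at 571.9 to 1262 in untreated M/D-driven and 2638 to 5647 in untreated AT3 tumors. *Ebf1* went the other way, at 255.3 to 585.6 against 50.7 to 109.3. Of these 7 markers 1 was thus lower and 1 higher in M/D-driven tumors without overlap. Of the 9 epithelial markers 6 were higher without overlap and 0 lower, while *Epcam* (15100 to 58730 against 22530 to 32350) and *Krt8* overlapped. The adipocyte markers were higher for 4 of 4 and the endothelial ones for 3 of 3, and 6 of 15 proliferation genes were lower. Groups did not overlap for 53.8% of all genes. The log2 fold changes also followed transcript length over all genes (Spearman rho = 0.32). With the trend with length and GC content removed, *Bax* was at -1.42 and *Bbc3* at -1.31 (limma adjusted p = 0.0015 and 0.0024) and *Sesn2* at 0.79 (0.022), while the part of the cell types was not tested.

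The 10 genes were set beside 3 further lists of 21 regulators and relatives of p53, 35 other p53 targets and 15 proliferation genes, all of which were tested in every comparison. For NAM, 0 genes of the 3 lists passed a limma adjusted p of 0.05 in either model. In AT3 tumors this count depended on the fit, since DESeq2 called 5 regulators, 4 other targets and 2 proliferation genes, limma without NAM-treated AT3 tumor 1 called 6, 5 and 2, and limma without untreated AT3 tumor 2 called 4, 5 and 1. The calls over all genes moved with the fit as well, from 0 to 2520 genes with a tumor left out (for DESeq2 see the closing section). With all AT3 tumors 19281 genes were tested. Whether the share called in each list differed from that of all genes in the same fit was not tested. At the study's thresholds, 0 of 21 regulators, 1 of 35 other targets and 0 of 15 proliferation genes passed in M/D-driven tumors, the 1 being *Gls2*, a mitochondrial glutaminase, at 81 ± 76 normalized counts with NAM against 246 ± 100 (SD, n = 4; log2 fold change -1.97 ± 0.65, limma adjusted p = 0.73). Those with the smallest p in each list were otherwise *Ppp1r13l* (-1.64), which encodes the p53 inhibitor iASPP, *Thbs1* (-1.01), *Perp* (-2.87), *Trp73* (-2.96), *Prkdc* (0.45), *Mcm2* (0.49), *Top2a* (0.33) and *Mcm5* (0.26), none of which passed. Without NAM-treated tumor 1 *Gls2* was at -1.60, *Ppp1r13l* at -0.70, *Thbs1* at -0.38, *Perp* at -1.12, *Trp73* at -1.05 and *Prkdc* at 0.24, while *Mcm2* (-0.05), *Top2a* (-0.22) and *Mcm5* (-0.20) turned to the other side of 0.

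In AT3 tumors 7 of the 21 regulators passed the study's thresholds with NAM, 6 higher and 1 lower, where 23.1% of all genes did (24.3% at the unadjusted p alone). The higher ones with the smallest p were *Ep300*, a histone acetyltransferase and coactivator of p53, at 490 ± 307 against 76 ± 35 normalized counts (SD, n = 3; 2.44 ± 0.62), *Sirt1*, an NAD-dependent deacetylase of p53, at 641 ± 149 against 331 ± 48 (0.94 ± 0.26), and *Atr*, a kinase of the DNA damage response, at 232 ± 126 against 62 ± 10 (1.69 ± 0.50). The lower one was *Cdkn2a*, which encodes the Mdm2 antagonist ARF and p16 (-0.60 ± 0.21; named after its value was seen). The limma adjusted p was 0.17 for each of these 4. Of the 35 other targets, 4 were higher and 4 lower, namely *Apaf1* (1.00), *Zmat3* (0.86), *Xpc* (0.69) and *Tnfrsf10b* (0.64) against *Rps27l* (-1.32), *Perp* (-0.87), *Fas* (-0.79) and *Phlda3* (-0.77), of which 5 (*Zmat3*, *Xpc*, *Tnfrsf10b*, *Rps27l* and *Fas*) are named after their values were seen. The other targets of p53 thus stood on both sides, with a median of -0.06 beside -0.05 over all genes. Of the proliferation genes, *Foxm1* (1.59 ± 0.40) and *Mcm2* (0.73 ± 0.24) passed, and *Mcm5* (0.46 ± 0.20) did not. NAM effects in AT3 tumors moved with transcript length over all genes (Spearman rho = 0.59), as did the interaction below (rho = 0.37). Effects of the listed genes are not given with that trend removed, so its part in them is not known.

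The interaction of NAM with the model passed an adjusted p of 0.05 for 0 genes of the lists. At the study's thresholds *Ep300* (2.50 ± 0.83) and *Atr* (1.66 ± 0.77) had the larger effect in AT3 tumors among the regulators, with *Sirt1* (0.79) just short of them. Among the other targets *Gls2* (1.92 ± 0.79) and *Thbs1* (1.83 ± 0.81) were on that side and *Rps27l* (-1.34 ± 0.55) and *Siva1* (-0.97 ± 0.45; named after its value was seen) on the other. Of all genes 14.9% passed the same thresholds, 7.9% with the higher effect in AT3 tumors and 6.97% with the lower. With a tumor left out 1838 to 4574 of all genes passed them. The proliferation genes with the smallest p, *Foxm1* (1.54), *Birc5* (-0.64) and *Cdk1* (-0.40), did not pass. Without NAM-treated M/D-driven tumor 1 the values were 2.70 for *Ep300*, 1.96 for *Atr*, 0.99 for *Sirt1*, 1.19 for *Thbs1*, -1.37 for *Rps27l* and 2.02 for *Foxm1*, all at the study's thresholds, whereas *Gls2* (1.54) and *Siva1* (-0.78) no longer were, and again 0 passed an adjusted p of 0.05.

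The regulators were also compared between the models in untreated tumors. Of 21, 10 were higher and 1 lower in M/D-driven than in AT3 tumors at an adjusted p of 0.05, beside 27.6% and 23.6% of all genes. Among those higher were the coactivators *Ep300*, at 847 ± 143 against 93 ± 40 rescaled reads (SD, n = 4 and 3), and *Crebbp*, at 2312 ± 223 against 515 ± 341. The p53 kinases *Hipk2* (2.43 ± 0.24) and *Atr* (1.51 ± 0.37), the deubiquitinase *Usp7* (0.96 ± 0.22) and the deacetylase *Sirt1* (1.04 ± 0.21) were higher too. So were *Ppp1r13l* (2.46 ± 0.40) and the p53 relative *Trp63* (2.70 ± 0.49), which basal epithelial cells express. Outside the naming rule, *Usp10* (0.57 ± 0.17) and *Trp73* (3.41 ± 0.87) were the remaining higher ones and *Cdkn2a*, at 1090 against 3528 rescaled reads (-1.93 ± 0.49), the lower one. Differences between untreated models moved with transcript length over all genes (Spearman rho = 0.32). Those of the listed genes are not given with that trend removed, so its part in them was not tested.

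Of the 35 other targets, 8 were higher and 10 lower in untreated M/D-driven tumors, beside 27.6% and 23.6% of all genes. Together the calls among all genes were 51.2%, so that these counts are close to the background. *Sfn*, the epithelial 14-3-3 sigma, was at 97020 ± 74590 against 8712 ± 1144 rescaled reads (3.03 ± 0.69), *Thbs1*, an inhibitor of angiogenesis, was higher by 1.52 ± 0.26 and *Apaf1*, the scaffold of the apoptosome, by 1.5 ± 0.19. Conversely, *Rps27l* (-2.80 ± 0.38), the mTOR inhibitor *Ddit4* (-2.17 ± 0.23), *Psrc1* (-2.51 ± 0.41), the DNA repair gene *Ddb2* (-1.59 ± 0.27) and *Gls2* (-1.56 ± 0.34) were lower. Of the 15 proliferation genes 0 were higher and 6 lower, beside the same shares of all genes. The 6 were *Birc5* (-2.68 ± 0.34), *Cdc25c* (-1.85 ± 0.38), *Cdk1* (-1.78 ± 0.37), *Ccnb2* (-1.44 ± 0.34), *Top2a* (-1.30 ± 0.38) and *Aurkb* (-1.27 ± 0.35). As for the regulators, these values are not given with the trend with transcript length removed.

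In NAM-treated tumors 0 regulators and 0 proliferation genes passed an adjusted p of 0.05 between the models, and 2 other targets did, *Ddit4* (-2.08 ± 0.38) and *Gls2* (-3.43 ± 0.69), both lower in M/D-driven tumors. All genes were called at 7.84%. Without NAM-treated M/D-driven tumor 1, when 17% of all genes were called, these counts became 3 of 21 regulators, 7 of 15 proliferation genes and 3 of 35 other targets, with *Ddit4* at -2.002 and *Gls2* at -3.06. The next smallest p values with all tumors were those of *Hipk2* (1.40), *Usp7* (0.50) and *Rchy1* (0.36) among regulators, *Rps27l* (-1.41) among the other targets and *Birc5* (-1.998), *Cdc25c* (-1.75) and *Cdk1* (-1.33) among proliferation genes. Without NAM-treated tumor 1 these were at 1.21, 0.26 and 0.35, at -1.39, and at -2.48, -2.07 and -1.72.

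**Figure D5:**
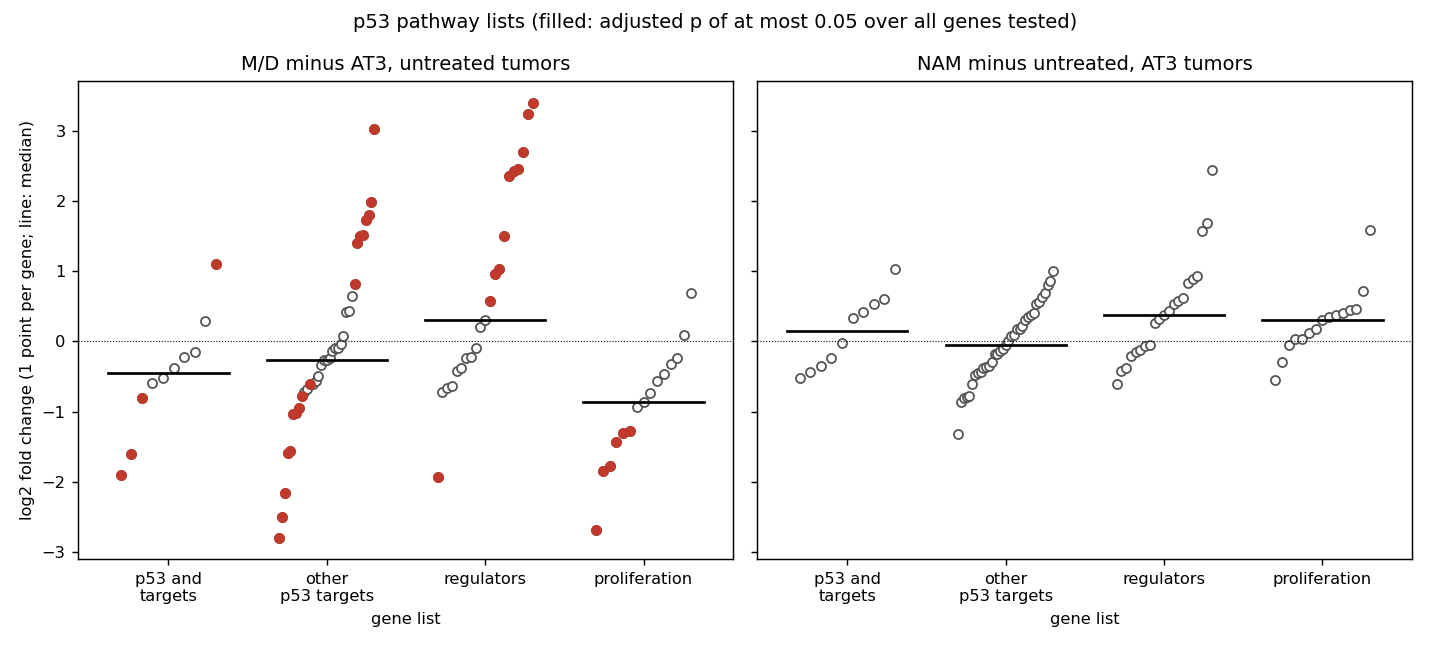
Log2 fold change of each gene of 4 lists, sorted within a list, between untreated M/D-driven and AT3 tumors (left) and between NAM-treated and untreated AT3 tumors (right); lines are list medians and filled points have an adjusted p of at most 0.05. The filled points are on the left side only, where 10 of the 12 regulators above 0 and 1 of the 9 below 0 are filled.

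Correlations of *Trp53* with the 9 other genes and of *Cdkn1a* with the 8 remaining ones were computed within each model (34 correlations on log2 values, exact two-sided permutation tests, p adjusted over the 34). For *Trp53*, 0 of 18 passed an adjusted p of 0.05. In AT3 tumors its largest were with *Sesn2* (n = 6, r = 0.84, exact permutation p = 0.039, rho = 0.77, exact permutation p = 0.10, adjusted p = 0.19 for r), *Gadd45a* (r = -0.82, exact permutation p = 0.053, rho = -0.66, exact permutation p = 0.18) and *Bax* (r = -0.80, exact permutation p = 0.063, rho = -0.89, exact permutation p = 0.033). The last was 0.57 in M/D-driven tumors. Without the 2 AT3 tumors farthest from the median of *Trp53* these 3 were at 0.77, -0.38 and -0.82. The trend with transcript length in AT3 tumors was not removed from these correlations. *Trp53*, like *Sesn2*, has a longer transcript (3275 and 3475 bases) than *Gadd45a* (1223) and *Bax* (1100). In M/D-driven tumors its highest was with *Trp53inp1* (n = 8, r = 0.76, exact permutation p = 0.028, rho = 0.55, exact permutation p = 0.17, adjusted p = 0.16 for r), which fell to r = 0.07 without the 2 tumors farthest from the median of *Trp53*. With *Bbc3* it was r = -0.11 over the 8 tumors and r = 0.82 (rho = 0.86) over the 7 tumors of experiment 1 (exact permutation p = 0.013, adjusted p = 0.11), but r = 0.22 once the 2 farthest of these 7 were also left out.

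*Cdkn1a* in AT3 tumors gave the 3 correlations that passed, by r and not by rho. They were with *Bax* (n = 6, r = 0.94, exact permutation p = 0.0028, rho = 0.94, exact permutation p = 0.017), *Gadd45a* (r = 0.93, exact permutation p = 0.0042, rho = 0.94, exact permutation p = 0.017) and, inversely, *Sesn2* (r = -0.92, exact permutation p = 0.0042, rho = -1, exact permutation p = 0.0028). The adjusted p of r was 0.047 in all 3, while the adjusted permutation p of rho was 0.19, 0.19 and 0.094. Without the 2 tumors farthest from the median of *Cdkn1a* r was 0.76, 0.93 and -0.85. These 6 tumors are of both treatments, and after centring each treatment group on its mean r was 0.85, 0.77 and -0.76 and 0 of 34 passed. *Cdkn1a* (2080 bases), *Bax* (1100) and *Gadd45a* (1223) have shorter transcripts than *Sesn2* (3475). NAM effects in AT3 tumors moved with transcript length (Spearman rho = 0.59), and the part of this trend in the correlations was not tested. In M/D-driven tumors *Cdkn1a* went with *Sesn2* (n = 8, r = 0.81, exact permutation p = 0.012, rho = 0.76, exact permutation p = 0.037, adjusted p = 0.098 for r), the opposite sign to AT3 tumors, and inversely with *Trp53inp1* (r = -0.80, exact permutation p = 0.017, rho = -0.79, exact permutation p = 0.028, adjusted p = 0.11). Both rested in part on NAM-treated tumor 1, since over the 7 others r was 0.56 and -0.57 (exact permutation p = 0.17 and 0.18). Without the 2 farthest of the 8 tumors r was 0.38 and -0.60.

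Among 14855 genes, those whose values moved most like *Trp53* over the 14 tumors, after centring on each of the 4 groups, were *Rbm28* (r = 0.94), *Rbm10* (0.94), *Txlna* (0.92), *Ints3* (0.92) and *Mogs* (0.92), and each was at r of at least 0.87 within either model. For *Cdkn1a* they were *Psapl1*, *Asns*, *Nipal1*, *Tubb6* and *Tuft1*, all with r of 0.97 to 0.98. Within M/D-driven tumors these were at 0.97 to 0.98, and at 0.96 to 0.98 without NAM-treated tumor 1, while within AT3 tumors *Psapl1* and *Tuft1* were at 0.94 and 0.90, *Asns* at 0.45, *Nipal1* at 0.32 and *Tubb6* at 0.02. The values are a description of these tumors, which share the libraries and their depth. None of the 9 other genes of the p53 pathway was among these 10.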

How the data were processed

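RNA-seq values of 14 tumors were used, from a single table. The authors aligned paired reads with STAR 2.4.0 to mm10, counted reads on constitutive regions of Mouse FAST DB 2016_1 genes and deposited counts normalized by DESeq2 size factors, a signal that is not whole and was scaled apart in each model. From these, whole reads were recovered for 100% of values (tolerance 0.01), giving 40936868 to 84178009 reads per tumor. 0 columns were left unmapped.

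NAM effects were tested with limma 3.58.1 (R 4.3.3, trend) on log2(normalized count + 1), and models were compared on reads rescaled by median-of-ratios size factors common to the 14 tumors. Genes needed a mean of 10 in at least 1 group. Fold changes are on the log2(value + 1) scale, which understates the change of low genes. p values were adjusted (Benjamini-Hochberg) over all genes tested. edgeR 4.0.16 and DESeq2 1.42.0 on recovered reads were alternatives, and edgeR called 0 genes for NAM in either model and 10885 between untreated models. Other alternatives changed the filter, pseudocount, rescaling, length and GC trend, replicate block and the tumors used. Correlations without NAM-treated M/D-driven tumor 1 were added after seeing the data. The fits were tested on simulated data.

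Named were the 10 genes, per list and comparison the 3 genes of smallest p and those at an adjusted p of at most 0.05 (8 at most), and the 5 genes most like *Trp53* and *Cdkn1a*. The genes and lists were chosen with earlier results of these data known.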

Additional observations from a re-analysis of the deposited data

Results flagged for a closer look

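Within the groups of 4 tumors, *Trp53* in untreated M/D-driven tumor 1, at 7249 normalized counts against 5090 to 5280 in the 3 others, and *Sesn2* in untreated M/D-driven tumor 4, at 1720 against 1112 to 1151, lay far from their groups. Their gaps to the nearest tumor were 0.896 and 0.921 of the range of the group, above Dixon's 95% critical value for 4 values. Of 20 groups tested 2 were so marked, and chance marks about 1 in 20. The effect of NAM on *Sesn2* differed between the models by 1.49 on the log2 scale (limma interaction, adjusted p = 0.30), past an unadjusted p of 0.05 but not an adjusted one.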

How the results depend on the processing

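The deviations of same-numbered tumors correlated at -0.44 to 0.11 in M/D-driven tumors and at -0.16 to 0.26 in AT3 tumors (mean 0.07, against -0.04 for other pairs), and since not every pair was above 0.1 the numbers were not taken as a pairing. Between untreated tumors the 4 calls became 2 with the length and GC trend removed with a replicate block, and 3 to 5 with a tumor left out, while at the study's thresholds 4 became 7 under upper quartile rescaling and 3 to 5 with a tumor left out. Between NAM-treated tumors the 0 calls became 2 with DESeq2 and 1 under upper quartile rescaling, and the 3 genes at the study's thresholds 3 to 5 with a tumor left out. For NAM in AT3 tumors the 0 calls became 1 with DESeq2, 1 with the replicate block and 0 to 2 with a tumor left out. At the study's thresholds the 1 gene became 2 with DESeq2, 3 under upper quartile rescaling and 1 to 3 with a tumor left out. In M/D-driven tumors 0 became 0 to 1, and for the interaction 1 became 0 to 2, with a tumor left out. The 3 correlations became 0 after centring on treatment. The cause was not tested. With the replicate number as a block, *Sesn2* was called for NAM in AT3 tumors (adjusted p = 0.043) and *Ccng1* was not called between untreated tumors (adjusted p = 0.061), and with the trend removed as well *Sesn2* was not called between untreated tumors (adjusted p = 0.083). For NAM in AT3 tumors the block also moved the calls from 0 to 3 regulators, 1 other target and 1 proliferation gene. Over all genes the block moved the calls of limma from 1 to 1296 for NAM in AT3 tumors, from 11121 to 7799 between untreated and from 1680 to 7 between NAM-treated tumors. DESeq2 called 179 genes for NAM in M/D-driven tumors, 2047 in AT3 tumors, 822 for the interaction and 4331 between NAM-treated tumors, where limma called 1, 1, 0 and 1680 and edgeR 0, 0, 0 and 1071, and 3625 were called between NAM-treated tumors without NAM-treated M/D-driven tumor 1. Upper quartile rescaling moved the median of all genes between untreated tumors from 0.04 to -0.49, and TMM to 0.16.

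These log2 fold changes, none of them called, changed sign. For NAM in M/D-driven tumors *Bbc3* was at 0.064 with DESeq2, 0.040 with edgeR, 0.32 without NAM-treated M/D-driven tumor 1, 0.079 with the trend removed, 0.079 with the trend removed and a replicate block, 0.017 under upper quartile rescaling and -0.42 to 0.32 with a tumor left out. *Ccng1* was at 0.11 without NAM-treated M/D-driven tumor 1 and -0.41 to 0.11 with a tumor left out. *Gadd45a* was at -0.45 to 0.037 with a tumor left out. *Eda2r* was at 0.061 with DESeq2, 0.053 with edgeR, 0.023 without NAM-treated M/D-driven tumor 1 and -1.16 to 0.023 with a tumor left out. For NAM in AT3 tumors *Mdm2* was at 0.013 under TMM rescaling, 0.020 with the trend removed, 0.020 with the trend removed and a replicate block and -0.17 to 0.12 with a tumor left out. *Gadd45a* was at 0.23 with the trend removed and 0.23 with the trend removed and a replicate block. *Eda2r* was at -0.0016 to 0.95 with a tumor left out. For the interaction *Trp53* was at -0.18 under upper quartile rescaling and -0.016 to 0.36 with a tumor left out. *Cdkn1a* was at -0.12 without NAM-treated M/D-driven tumor 1 and -0.12 to 1.32 with a tumor left out. *Mdm2* was at -0.25 under upper quartile rescaling and -0.051 to 0.24 with a tumor left out. *Bbc3* was at -0.56 to 0.19 with a tumor left out. *Gadd45a* was at 0.21 with the trend removed, 0.21 with the trend removed and a replicate block and -0.38 to 0.10 with a tumor left out. *Trp53inp1* was at -0.20 with DESeq2, -0.11 with edgeR, -0.14 with the trend removed, -0.14 with the trend removed and a replicate block, -0.33 under upper quartile rescaling and -0.40 to 0.37 with a tumor left out. Between untreated tumors *Gadd45a* was at 0.12 with the trend removed. *Eda2r* was at -0.71 to 0.27 with a tumor left out. *Trp53inp1* was at -0.19 under upper quartile rescaling. Between NAM-treated tumors *Sesn2* was at 0.10 without NAM-treated M/D-driven tumor 1 and -0.61 to 0.10 with a tumor left out. *Gadd45a* was at 0.038 with the trend removed and a replicate block, 0.065 with the replicate block and -0.41 to 0.065 with a tumor left out. *Trp53inp1* was at -0.038 without NAM-treated M/D-driven tumor 1 and -0.038 to 0.73 with a tumor left out.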
